A study of Homo sapiens with 21 samples.

Results

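Histone H3 K27ac in A375 melanoma cells carrying the hairpin shH3 (A375-shH3-K27ac, 1 library) was compared with K27ac in A375 cells carrying shNTC (A375-shNTC-K27ac, replicates 1 and 2). These are 3 of the 21 samples of a series on human melanoma cell lines with HOXD13 silenced or overexpressed. A375 is an established line from a skin melanoma with a mutant BRAF kinase. The labels give no target for shH3, and shNTC was read as the non-targeting control. All samples share a growth protocol of 72 h in complete medium with or without 1 µg/ml doxycycline, which induces the hairpins, and the labels do not say which cultures received it. They also do not say whether a library came from ChIP-seq or CUT&Tag, or whether the shNTC replicates were separate cultures. Lost regions were those listed in both shNTC replicates, merged, that no shH3 region overlapped by 1 bp. Gained regions were shH3 regions that overlapped neither shNTC list. By this rule 27870 of the 65337 shared shNTC regions were lost (42.7%, 95% Wilson interval 42.3 to 43.0%) and 4253 of the 51838 shH3 regions were gained (8.20%, 7.97 to 8.44%). With 1 shH3 library no test against replicate spread was possible, and the intervals cover counting error only.

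K27ac is an acetyl group on a lysine of the histone H3 tail that marks active promoters and enhancers, and the length of chromatin it covers around a gene tends to follow how strongly its control elements are used. HOXD13 is the most posterior homeobox factor of the HOXD cluster and is best known for patterning the digits and the distal limb. Melanoma cells move between a melanocytic state run by MITF and SOX10 and an undifferentiated state marked by AXL, EGFR and inflammatory cytokines.

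The lists differed before any region was matched. The shH3 list held 51838 regions over 49.2 Mb, with a median width of 640 bp. The shNTC lists held 85977 regions over 103 Mb (median 741 bp, replicate 1) and 80242 regions over 98.4 Mb (median 766 bp, replicate 2). Read depth is not in the region lists, and a shallower shH3 library, less acetylation per cell and fewer acetylated cells cannot be told apart. For that reason each count was repeated with the shNTC lists cut to their 51838 strongest regions by −log10 q, the caller's significance score. At this equal length the shNTC lists still covered 86.4 and 84.5 Mb, and 10806 of 43517 shared shNTC regions (24.8%, 24.4 to 25.2%) were lost, against 7891 of 51838 shH3 regions gained (15.2%, 14.9 to 15.5%). The shH3 list is the same at both lengths, so a cut of the shNTC lists can only add gained regions. It removes lost regions, save where a merged shNTC region splits and leaves a lost piece. Of the 7891 gained regions 3638 (46.1%) lay in a weaker region of at least 1 deposited shNTC list. The shNTC replicates also differed from each other: 19.6% of the regions of replicate 1 were absent from replicate 2 and 13.2% the other way, or 13.0% and 12.3% at equal length. The regions of shH3 absent from replicate 1 or replicate 2 made up 10.2% and 11.6% as deposited and 18.8% and 19.3% at equal length. The shNTC regions absent from shH3 made up 53.3% and 50.6%, and 32.0% in either replicate at equal length.

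The lost gene starts included those of several inflammatory genes, and the gained ones included EN2, HES4 and HOXD13. The promoter windows of 6 of them are shown because, of the 3 libraries, the start of each carried K27ac in shH3 alone or in both shNTC replicates alone. Each is the 250 bases before the start of the gene, 5′ to 3′ on the strand of the gene, from RefSeq (GRCh38.p14, the same coordinates as hg38). Capitals mark TGANTCA, the site of AP-1, and GGANTTTCC, part of many NF-κB sites, on either strand. CAATAAA and CGTAAA, which HOX13 proteins are known to bind, were searched in the same way and occur in none of the 6.
EN2: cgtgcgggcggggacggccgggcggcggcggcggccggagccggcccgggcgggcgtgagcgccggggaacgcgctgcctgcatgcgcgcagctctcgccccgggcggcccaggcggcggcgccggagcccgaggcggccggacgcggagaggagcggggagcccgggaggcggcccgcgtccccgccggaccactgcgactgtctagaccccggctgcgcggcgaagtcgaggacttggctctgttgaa
HES4: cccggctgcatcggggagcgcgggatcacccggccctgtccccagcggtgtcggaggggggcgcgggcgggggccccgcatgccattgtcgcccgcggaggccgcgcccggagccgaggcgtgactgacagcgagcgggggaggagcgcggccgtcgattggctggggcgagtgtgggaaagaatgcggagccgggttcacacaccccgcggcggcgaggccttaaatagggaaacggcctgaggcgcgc
HOXD13: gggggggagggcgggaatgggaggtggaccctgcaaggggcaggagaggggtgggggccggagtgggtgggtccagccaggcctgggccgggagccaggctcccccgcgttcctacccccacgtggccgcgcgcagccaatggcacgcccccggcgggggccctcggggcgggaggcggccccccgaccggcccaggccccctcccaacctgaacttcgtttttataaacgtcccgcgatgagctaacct
CXCL8: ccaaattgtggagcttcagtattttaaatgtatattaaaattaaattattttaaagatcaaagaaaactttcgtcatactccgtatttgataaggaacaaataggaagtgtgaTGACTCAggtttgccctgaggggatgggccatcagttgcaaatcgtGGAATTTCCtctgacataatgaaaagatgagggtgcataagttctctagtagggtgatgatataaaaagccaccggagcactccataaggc
CXCL2: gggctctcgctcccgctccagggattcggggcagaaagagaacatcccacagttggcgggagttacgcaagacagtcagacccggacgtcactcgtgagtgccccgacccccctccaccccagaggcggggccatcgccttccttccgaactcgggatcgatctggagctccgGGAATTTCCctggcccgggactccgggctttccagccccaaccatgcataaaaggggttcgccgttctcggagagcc
IL1B: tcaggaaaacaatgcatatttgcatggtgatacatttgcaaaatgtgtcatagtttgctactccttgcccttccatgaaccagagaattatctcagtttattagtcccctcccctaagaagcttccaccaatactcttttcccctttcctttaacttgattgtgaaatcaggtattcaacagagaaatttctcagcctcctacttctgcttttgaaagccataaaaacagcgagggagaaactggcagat
The windows are chr7:155457879-155458128 (+) for EN2, chr1:1000098-1000347 (−) for HES4, chr2:176092471-176092720 (+) for HOXD13, chr4:73740319-73740568 (+) for CXCL8, chr4:74099196-74099445 (−) for CXCL2 and chr2:112836780-112837029 (−) for IL1B. The gained windows were rich in G and C, at 81.2% (EN2), 74.8% (HES4) and 74.0% (HOXD13), with 45, 35 and 21 CpG pairs. Of the lost ones, CXCL8 had 37.6% and 4 CpG pairs, IL1B 40.0% and 1, and CXCL2 64.4% and 20. In CXCL8 the AP-1 letters run from base -137 to base -131 and the NF-κB letters from base -91 to base -83, counted from the start, and in CXCL2 the NF-κB letters run from -77 to -69.

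HOXD13 (chr2:176087487-176095944, hg38, start used here at 176092721) had more K27ac in shH3. Its cover, the length of all K27ac regions in the gene and 5 kb on either side, was 2055 bp in shH3, against 339 bp in shNTC replicate 1 and 322 bp in shNTC replicate 2. In shH3 a weak region of 346 bp (fold enrichment 3.28) lay inside the gene, less than 2 kb past the start, where neither shNTC list had a region, so the start counted as gained. The K27ac list of A375-GFP, A375 cells labelled GFP, also had a region within 2 kb of this start. A stronger shH3 region of 1709 bp (fold 7.28, −log10 q 15.6) ran from 176096036 to 176097744, just past the gene end. Inside its span both shNTC lists held a short region, of 339 bp (fold 2.13) and 322 bp (fold 2.03), and both drop out at equal length. Folds are the authors' own values and are read within each list. K27ac is not a measure of HOXD13 RNA or protein, so the degree of silencing was not measured here. Its neighbour HOXD12, which shares the region past the gene end, had 1709 bp against 339 and 322 bp. Of the other 7 genes of the cluster 5 had less cover than either replicate, 1 lay between and 1 had none. HOXD8 had 1922 bp against 3834 and 2883 bp, HOXD9 289 bp against 1707 and 1240 bp, and HOXD1 none against 1045 and 1220 bp.

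Among all 15812 protein-coding genes with a start in the RefSeq table, 9170 starts had a K27ac region within 2 kb in both shNTC replicates, and 933 of these (10.2%) had none in shH3. In shH3 8495 starts were acetylated, and 110 (1.29%) had no region in either shNTC list. At equal length 547 of 8450 (6.47%) were lost and 302 of 8495 (3.56%) gained. The A375-GFP K27ac list had a region within 2 kb of the gained starts of EN2, HOXD13 and BCL2, and none by HES4 and MSX2. Of the listed genes with a lost start, CXCL2, CXCL3, CXCL8, IL1A, ADORA1, SEMA3B, HOXD1 and LCK had such a region. IL1B, CD274, EGFR, SEMA3D, TIE1 and TYR had none in that list. Lost starts had a median of 63.2% G and C and 17 CpG pairs in the window, gained starts 65.0% and 19.5, starts acetylated in shH3 and at least 1 shNTC list 65.2% and 21, and starts with no K27ac in any list 56.4% and 7. CAATAAA occurred in 1.93% of lost, 0.909% of gained and 2.17% of shared starts, and in 2.67% of all windows. For CGTAAA the shares were 2.47%, 2.73% and 3.89%, and 3.04% of all. TGANTCA occurred in 4.72% of lost, 3.64% of gained and 3.82% of shared starts, and in 5.05% of all. GGANTTTCC occurred in 2.36% of lost starts (1.56 to 3.54%), 0.909% of gained starts (0.161 to 4.97%), 1.49% of shared starts (1.25 to 1.77%) and 1.41% of all. The lost and shared intervals of this motif overlap as deposited and still touch at equal length, where the shares were 2.93% of lost, 0.331% of gained and 1.53% of shared starts. These letters are a description of the windows, not evidence that a factor binds there.

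Of the 14 chemokines and inflammatory cytokines with a known start, 7 were acetylated in both shNTC replicates, and 5 of these 7 starts were lost with shH3, at full and at equal length, beside 10.2% and 6.47% of all acetylated starts. The 5 lie at 2 loci, CXCL2, CXCL3 and CXCL8 in the chemokine cluster of chromosome 4 and IL1A and IL1B side by side on chromosome 2. Their strongest shNTC regions had a −log10 q, in the lower replicate, of 5.82 (IL1B) to 15.7 (CXCL2). Of all shared shNTC regions, 51.5% were lost at a −log10 q of 5.66 to 7.44 and 11.3% at 14.7 to 22.2. Lost starts were not compared at matched strength. CXCL8, the neutrophil attractant interleukin-8, had no K27ac in shH3, against 2199 bp in shNTC replicate 1 and 1970 bp in replicate 2. CXCL2, a related neutrophil chemokine, had none against 2871 and 2390 bp, and CXCL3 none against 1586 and 1911 bp. In all 3 genes both replicates were covered and the shH3 library was at 0. Interleukin-1β (IL1B), the cytokine that starts many inflammatory cascades, had 0 bp against 3367 and 3757 bp. For IL1A, its sister gene, 238 bp stood against 4046 and 4314 bp. CXCL1 kept its start in shH3 with 649 bp, against 4395 and 3928 bp in shNTC, and IL11 had 1346 bp against 4856 and 4604 bp. CXCL1, CXCL2 and CXCL3 are close copies of each other, and how reads matching several copies were counted is not given in the sources used here. The exception was CCL2, the monocyte attractant, with 3215 bp in shH3 against 1809 and 1814 bp. Over the 16 genes of the list, 9 had less cover in shH3 than in either shNTC replicate, 1 had more, 1 lay between and 5 had none in any list. With the lists cut to equal covered length, described next, CXCL2, CXCL3, CXCL8 and IL1B had 0 bp in all 3 lists, and IL1A had 238 bp in shH3 against 0 and 0 bp. CXCL1 had 649 bp against 4395 and 3928 bp and IL11 1346 bp against 2799 and 3151 bp, and both were still called less. CCL2 was called more, with 3215 bp against 0 and 0 bp. Of the 5 genes of the list with any cover there, 3 had less and 2 more.

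The covers of gene lists have to be read against all genes. Of all 19974 protein-coding genes 67.4% had less than either replicate and 3.66% more (59.9% and 6.44% at equal length), while 4686 had none in any list. Of the 15288 genes with any cover 88.0% had less and 4.78% more as deposited, and 81.6% and 8.77% at equal length. With the shNTC lists cut to their strongest regions until all 3 lists covered the same 49.2 Mb, here called equal covered length, the shares among 13679 genes with any cover were 41.3% less and 45.6% more. The direction of cover for the typical gene therefore depended on how the lists were cut. Over the 294 listed genes, 222 of the 249 with any cover had less and 15 more as deposited, and 94 of 219 had less and 98 more at equal covered length. The counts by list that follow are those of the deposited lists unless another cut is named, and shares near these of all genes say nothing particular about a list.

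**Figure D1:**
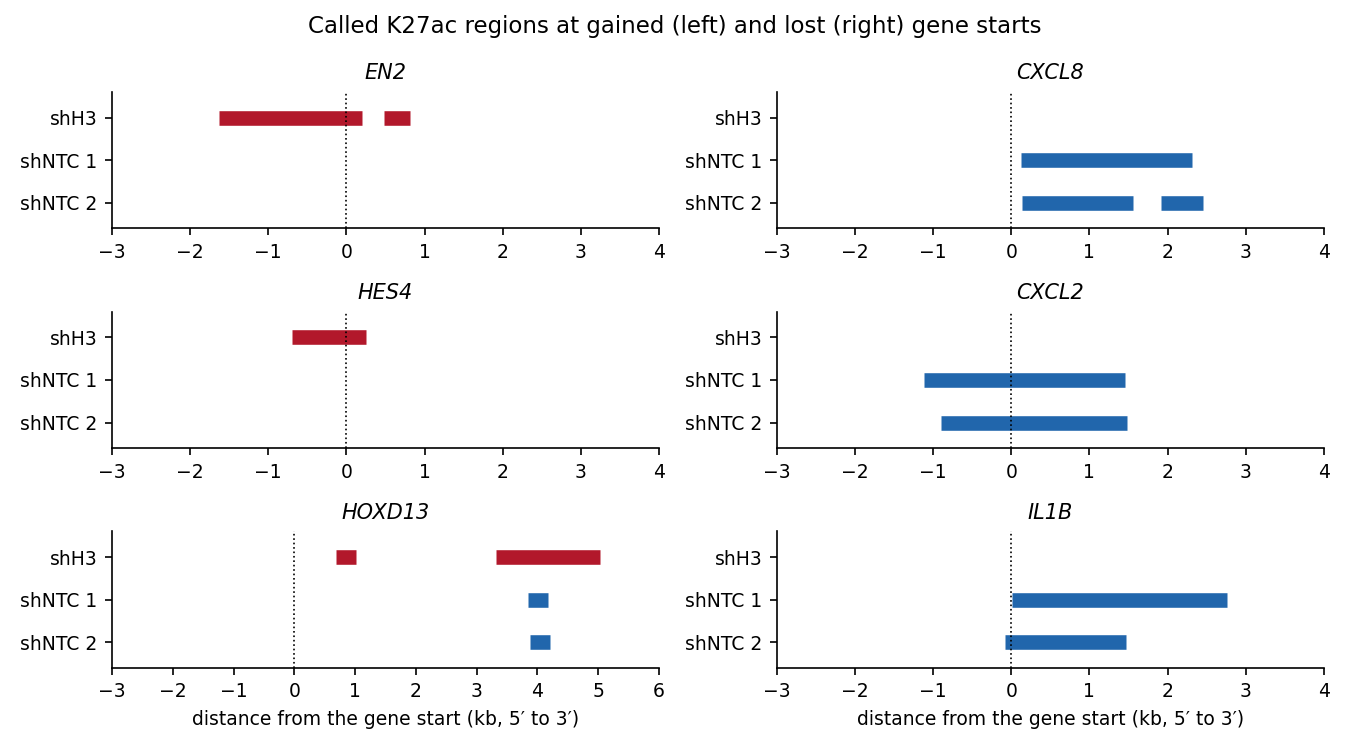
K27ac regions called in shH3 (red), shNTC replicate 1 and shNTC replicate 2 (blue) at 6 gene starts; the x axis is the distance from the start in kb along the gene and the dotted line the start. EN2 and HES4 have a region over the start in shH3 alone and HOXD13 a 346-bp region after it, while the regions of 546 to 2755 bp at CXCL8, CXCL2 and IL1B in shNTC have no counterpart in shH3.

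Of the 6 VEGF ligands and receptors with any cover all had less in shH3, beside 88.0% of all genes, and at equal covered length 3 of 5 had less and 1 more. Both whose known start was acetylated, VEGFB and VEGFC, kept it. VEGFA, the main growth factor of vessels, had 1691 bp in shH3, against 4641 and 4293 bp in shNTC. Cut to equal covered length it had 1691 bp against 4396 and 2988 bp. VEGFC, which drives lymphatic vessels, had 1644 bp against 7874 and 7556 bp, and VEGFB 3932 bp against 8711 and 9483 bp. KDR, the VEGF receptor of endothelium, had 0 bp against 2144 and 2132 bp, none of it within 2 kb of the start. At equal covered length VEGFC had 1644 bp in shH3 against 1608 and 1659 bp, so no difference was left, VEGFB had 3932 bp against 6622 and 6790 bp, and KDR had 0 bp in all 3 lists. All 6 angiopoietins and TIE receptors had less, and 1 of 4 at equal covered length; ANGPT1, a TIE2 ligand, had 3828 bp against 10696 and 10392 bp, and turned to 3828 bp against 3303 and 3546 bp at equal covered length. The start of TIE1 was lost (0 bp against 288 and 427 bp within 2 kb), but its shNTC regions fall out at equal length. It is also the 1 lost start in these lists that lies in the list of HA-tagged HOXD13 regions of A375.

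In the hypoxia response all 7 genes with any cover had less, beside 88.0% of all genes, and 4 of 6 had less at equal covered length. None of the 4 acetylated starts was lost, beside 10.2% of all. HIF1A, the oxygen-sensitive transcription factor, had 2394 bp in shH3 against 11217 and 11180 bp in shNTC as deposited. This turned to 2394 bp against 1841 and 1983 bp at equal covered length. For its relative EPAS1 the values were 1441 bp against 6824 and 6742 bp, and 1441 bp against 4683 and 2123 bp at equal covered length. CA9, an enzyme that hypoxia induces, had 0 bp against 2823 and 3179 bp, and 0 bp in all 3 lists at equal covered length.

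Class 3 semaphorins, secreted guidance cues that also act on vessels, had less cover in 6 of 7 genes, with 1 between. SEMA3A had 19845 bp in shH3 against 50994 and 51414 bp, and SEMA3C 14039 bp against 32666 and 29292 bp. Of those with cover at equal covered length 5 of 6 had less, with SEMA3A at 19845 bp against 23953 and 24508 bp. The starts of SEMA3B (0 bp against 774 and 1047 bp within 2 kb) and SEMA3D (0 bp against 317 and 765 bp) were lost, 2 of the 3 acetylated ones, and at equal length SEMA3B alone. The SEMA3B cover was the edge of shNTC regions of 3955 and 3602 bp (folds 19.2 and 18.9) that lay mostly outside the window. Over the whole gene SEMA3B kept 6914 bp in shH3, against 16316 and 16255 bp. All 7 neuropilin and plexin receptors of the semaphorins had less cover, with NRP2 at 10246 bp against 21759 and 20077 bp, and no start was lost, but at equal covered length 2 had less and 5 more.

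**Figure D2:**
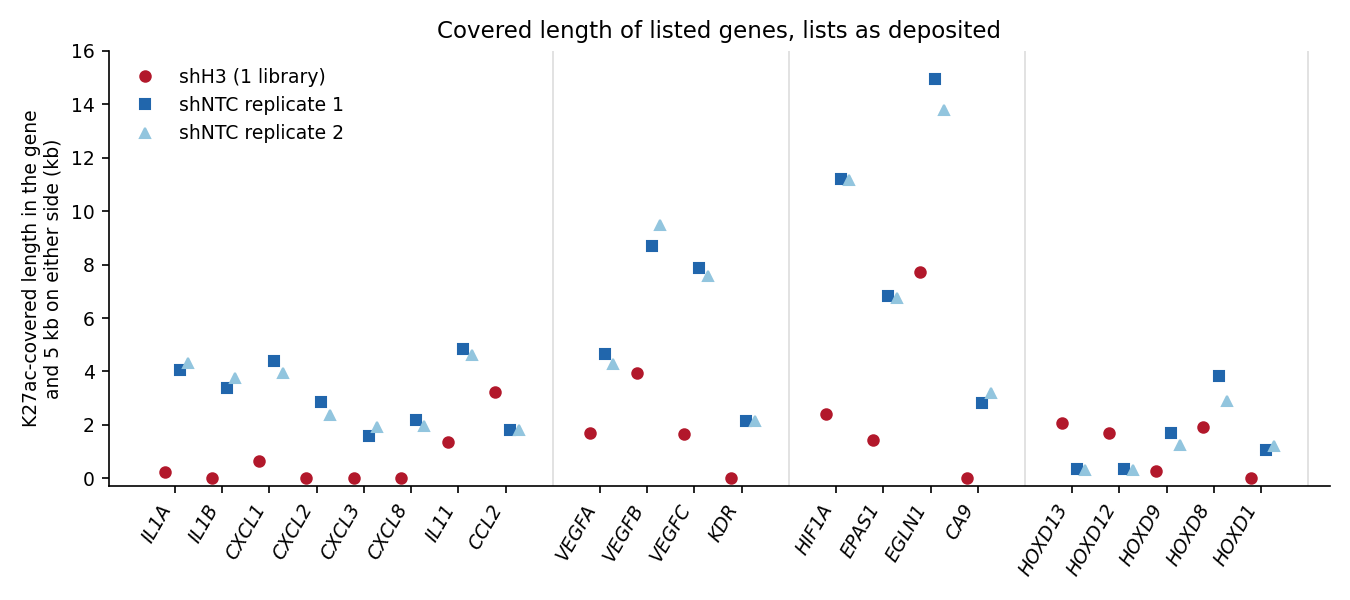
K27ac-covered length in kb (y axis, gene and 5 kb on either side, lists as deposited) of named chemokine and cytokine, VEGF, hypoxia and HOXD genes (x axis); red circles are the shH3 library, blue squares and light blue triangles shNTC replicates 1 and 2. With these deposited lists, in all but CCL2, HOXD13 and HOXD12 the shH3 point lies below both shNTC points.

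Adenosine genes, whose product dampens immune cells, were mixed. Of 10 enzymes and transporters 7 had less cover and 3 more than either replicate; NT5E, the ectoenzyme CD73, had 8157 bp in shH3 against 13977 and 14114 bp, and ADK, which removes adenosine, 8502 bp against 20862 and 19234 bp. Cut to equal covered length 1 enzyme had less and 7 more, and ADK turned to 8502 bp against 4178 and 6775 bp. Of the 4 receptors 3 had less and 1 had none in any list, while ADORA2B, with 12114 bp against 21955 and 20873 bp, was called more at equal covered length (12114 bp against 5962 and 5987 bp). The start of ADORA1 was lost as deposited (0 bp against 716 and 488 bp within 2 kb) and not acetylated in shNTC at equal length. Among immune checkpoints and suppressive cytokines 12 of 14 had less cover and 2 had none, and at equal covered length 4 had less and 4 more. The start of CD274, the checkpoint ligand PD-L1, had 0 bp in shH3 against 693 and 592 bp within 2 kb, with folds of 8.17 and 7.28 in shNTC, and it was the 1 lost of 7. TGFB2 had 1390 bp against 4837 and 4886 bp. All 10 antigen presentation genes outside the MHC had less cover, beside 88.0% of all genes with any, such as CALR with 4922 bp against 11021 and 11277 bp. None of their 7 acetylated starts was lost. At equal covered length 4 had less and 4 more, and ERAP2, a peptide-trimming enzyme, was called more with 4931 bp against 2158 and 1975 bp. As deposited ERAP2 had less in shH3, with 4931 bp against 6011 and 5328 bp.

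The melanocytic regulators MITF, SOX10 and PAX3 carried K27ac in all 3 libraries, while pigment genes ranged from none to several kb. The pigment gene MC1R had 6343 bp in shH3 against 9399 and 8710 bp in shNTC. Median cover in shH3 was 1994 bp over the melanocytic list and 4997.5 bp over the undifferentiated list, with a wide range in each. MITF, the melanocyte master regulator, had 20206 bp in shH3 against 23685 and 23338 bp, and SOX10 19313 bp against 21933 and 21966 bp. DCT and SLC45A2, pigment genes, had none in any of the 3 libraries, and PAX3, a melanoblast factor, had 4111 bp against 5790 and 5515 bp. MLANA, a melanosome antigen, had 299 bp against 927 and 983 bp, PMEL, the melanosome fibre protein, 1994 bp against 4395 and 3363 bp, and TYRP1 278 bp against 0 and 732 bp. Of 17 melanocytic genes 11 had less cover, 1 more and 3 lay between, and the lost start of TYR, the first enzyme of melanin synthesis, rested on 74 and 145 bp in shNTC. PAX3 turned to 4111 bp against 2419 and 2014 bp at equal covered length, where 4 melanocytic genes had less and 8 more. Of 18 undifferentiated and invasive genes 14 had less and 2 more as deposited, and 7 less and 8 more at equal covered length. TNC, a matrix protein of invasive cells, had 12676 bp against 46778 and 42682 bp, and AXL, a receptor kinase, 9878 bp against 31464 and 28304 bp. EGFR lost its start as deposited (0 bp against 1144 and 478 bp within 2 kb) while keeping 14765 bp over the gene, against 22697 and 19791 bp. CCN2, a YAP target, had 2163 bp against 1248 and 1270 bp. The MAPK feedback genes, read-outs of BRAF signalling, had less cover in 16 of 17, beside 88.0% of all genes with any, and none of 9 acetylated starts was lost. ETV1 had 8470 bp against 20590 and 20210 bp. Cut to equal covered length 10 had less and 4 more, and EPHA4, a receptor kinase, was called more with 6139 bp against 0 and 0 bp. As deposited EPHA4 had less in shH3, with 6139 bp against 9044 and 9326 bp.

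In the other lists BCL2, a survival factor, and MSX2, a limb homeobox gene, were the further gained starts besides HOXD13. BCL2 had a 407-bp region within 2 kb of its start and MSX2 one of 321 bp (fold 4.35 and 3.82) where neither shNTC list had any. MCL1, another survival factor, had 3584 bp in shH3 against 12088 and 11683 bp, and 11 of 14 cell cycle and survival genes had less cover. At equal covered length MCL1 had the same values and was still called less. All 11 cohesin and CTCF partners had less, with STAG2 at 5460 bp against 21085 and 17342 bp and all 10 starts kept. Of the limb development genes 9 of 18 had less, 1 had more and 8 had none. RUNX2 had 12137 bp against 28935 and 27101 bp. The counts with less cover were 8 of 11 in HOXA, 9 of 10 in HOXB, 8 of 9 in HOXC and 5 of 9 in HOXD, which had 2 with more, HOXD13 and its neighbour HOXD12 (1709 bp against 339 and 322 bp, from the same regions). HOXC13, the HOX13 gene of another cluster, had 225 bp against 2888 and 3104 bp as deposited and 225 bp against 0 and 0 bp at equal covered length. At equal covered length 4 cell cycle and survival genes had less and 8 more, 6 and 2 cohesin genes, 3 and 6 limb genes, 6 and 2 HOXA, 8 and 0 HOXB, 4 and 3 HOXC, and 0 and 5 HOXD genes. Housekeeping genes had less cover in 13 of 15 with none of 10 starts lost, and 9 less and 3 more at equal covered length. Lists of other cell types gave 6 of 12 keratinocyte, 8 of 11 T cell, 10 of 12 fibroblast, 10 of 12 endothelial and 3 of 12 hepatocyte genes with less cover, and 4, 5, 9, 7 and 2 at equal length. At equal covered length 1, 1, 0, 4 and 0 had less and 3, 4, 7, 4 and 3 more. List members at 0 in all 3 libraries included KRT1, KRT5 and IVL for keratinocytes, CD3D and CD8A for T cells and POSTN for fibroblasts. CLDN5 for endothelium and ALB, APOA1 and APOB for hepatocytes were also at 0. Other members were covered in all 3, such as SFN (2341 bp in shH3 against 4466 and 5355 bp) and LCK (306 bp against 4730 and 3365 bp). FBN1 had 5304 bp against 10903 and 11091 bp, PECAM1 5164 bp against 12153 and 9954 bp and HNF4A 1336 bp against 1659 and 1396 bp. Genes at 0 numbered 8 of 12 in shH3 against 6 and 6 in shNTC for keratinocytes, 6 of 11 against 2 and 2 for T cells, 3 of 12 against 1 and 1 for fibroblasts, 4 of 12 against 2 and 2 for endothelium and 9 of 12 against 8 and 8 for hepatocytes. The 1 lost start among them was LCK, a kinase of T cells, with 0 bp in shH3 within 2 kb against 1459 and 1205 bp. Within 50 kb of a gene, 73.5% of all genes had a lost and 21.1% a gained region (52.2% and 36.5% at equal length), so such counts separated few lists. Chemokines had 14 of 16 with a lost and 2 with a gained region, VEGF genes 6 and 2 of 8, and HOXD genes 9 and 6 of 9.

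Over whole genes, cover was called less where shH3 had under 0.5 of the lower shNTC replicate and more where it had over 2 times the higher one, each from 2 kb of cover up. With the lists as deposited 5215 of 9664 genes were called less (54.0%) and 19 of 6158 more (0.309%). At equal length the counts were 3302 of 8687 (38.0%) and 40 of 6158 (0.650%). With the 3 lists cut to an equal covered length of 49.2 Mb, the setting planned as the main one, they were 571 of 5698 (10.0%) and 752 of 6158 (12.2%). That cut keeps 17817 and 18188 wide shNTC regions against 51838 mostly narrow ones in shH3. Since the shH3 list is the same in all 3 settings and only the shNTC lists grow, a gene called less here stays so under the other settings and the number called more can only shrink, to 40 of the 752 at equal length and 19 as deposited. Neither is a sign of stability.

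The 10 genes of the 571 with the largest deficit in shH3 were ST3GAL4, BIN3, TOP1, CSPG4, LOXL4, CD55, ITGA5, ZBTB7B, PEA15 and ABHD14A-ACY1. At equal covered length CSPG4, the melanoma proteoglycan also called NG2, had 15167 bp in shH3 against 35922 and 32604 bp in shNTC. ITGA5, the α-chain of the fibronectin receptor, had 8600 bp against 20706 and 19341 bp, and TOP1, the DNA topoisomerase, 11894 bp against 33010 and 36409 bp. CD55, which shields cells from complement, had 1502 bp against 16984 and 9000 bp, and 1502 bp against 33925 and 33136 bp as deposited. In ST3GAL4, a sialyltransferase, 24357 bp stood against 53233 and 49133 bp. The 10 genes of the 752 with the largest excess were SORCS1, MITF, SHROOM3, ZNF608, JARID2, DPH6, COL5A2, AK5, NPAS3 and NHS, and of these SORCS1, a sorting receptor, was still called more at equal length. SORCS1 had 22605 bp in shH3 against 0 bp in both replicates at equal covered length, 8529 and 8348 bp at equal length, and 15596 and 13734 bp as deposited. MITF, by contrast, had 20206 bp against 4119 and 6587 bp at equal covered length and less than either replicate as deposited.

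The 19 genes still called more with the lists as deposited, named after their values were seen, were SAMD11, HPDL, LYPD6B, HOXD13, CAV3, OXTR, SLCO2A1, LOC124900844, MEGF10, CPA5, CRYGN, LOC124901780, EN2, PCSK5, SEPHS1, DHRS2, CA10, MGAT5B and NFILZ. CAV3 and OXTR share the same 2250 bp (326 and 0 bp in shNTC), and CRYGN and LOC124901780 overlap. MEGF10, an engulfment receptor, had 6464 bp in shH3 against 1865 and 2117 bp as deposited. LYPD6B, which modulates nicotinic receptors, had 3882 bp against 0 and 0 bp. EN2, the engrailed homeobox factor of the midbrain, had 2168 bp against 0 and 0 bp. SLCO2A1, the prostaglandin transporter, had 4287 bp against 336 and 410 bp.

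The 10 strongest lost regions are the same at both list lengths by construction, since the cut removes only the weakest shNTC regions. The strongest lost region (chr13:43668757-43675349) spans 6593 bp inside ENOX1 and had folds of 38.1 and 33.2 in the shNTC replicates, with the nearest shH3 region 95437 bp away. It lies in neither the ATAC nor the K27ac list of A375-GFP. Next came a region of 2276 bp (folds 32.5 and 29.6) by the end of TMEM156 and one 258217 bp from TMEM167A (folds 31.8 and 26.7). The other 7 lay nearest to AP4E1, SLC15A1, SAMD12, LOC102724117, SPRY2, DTWD1 and IYD, with folds of 21.5 to 26.2 and distances of 0 to 962951 bp. None of the 10 held a gene start and 1, inside SLC15A1, overlapped an HOXD13-HA region. Of all 9414 regions called lost with −log10 q of at least 10 in every list, 13.6% lay within 2 kb of a start and 13.7% overlapped HOXD13-HA. This filter also drops weaker shH3 regions, so a region lost under it can overlap a weaker shH3 region of the deposited list. In the same way a region gained under it can overlap a weaker deposited shNTC region. The strongest gained region was over the start of EN2 (chr7:155456497-155458330, fold 10.7). SLCO2A1 followed, with a region of 2742 bp inside the gene (fold 10.4), and then HES4, a Notch-responsive repressor, with 954 bp over its start (chr1:999842-1000795, fold 11.6). The others of the 10 lay in or nearest to FRMD4A, PLXDC1, APCS, KIF6, SSTR4, GPAM and DPH6, with folds of 9.24 to 11.1. All 10 overlapped an A375-GFP ATAC region and none overlapped HOXD13-HA, where of all gained regions with −log10 q of at least 10 in every list 94.1% and 12.4% did. Those of EN2, SLCO2A1, FRMD4A, PLXDC1, APCS, GPAM and DPH6 also overlapped the A375-GFP K27ac list, and those of HES4, KIF6 and SSTR4 did not. Of all gained regions under the same filter 71.2% overlapped that list. At equal length a region 35580 bp from MYCN (chr2:15981672-15983495, fold 17.0) led, ahead of regions near GLUL, CCDC7, SKIC8 and NPHP4. The deposited shNTC lists held a weaker region in each of these 5 places, in 1 or both replicates, such as 368 bp of fold 3.51 near MYCN in replicate 2. EN2, SLCO2A1, HES4, RUNX2 and KIRREL3 completed that list, the last 2 also with a weaker shNTC region as deposited.

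Lost and gained regions were weak and narrow as groups. Lost regions had a median width of 769 bp and a median −log10 q of 4.14, against 1643 bp and 14.7 for kept regions, the shared shNTC regions that shH3 retained. Gained regions had medians of 323 bp and 3.42, against 697 bp and 8.26 for shH3 regions in an shNTC list. The lost share was 85.4% in the weakest of 10 strength classes and 0.781% (51 of 6534) in the strongest, or 59.9% and 0.391% at equal length. In shH3 21.5% of the weakest class and 0 of 5184 regions of the strongest class were gained, which allows a share of up to 0.0579% there.

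**Figure D3:**
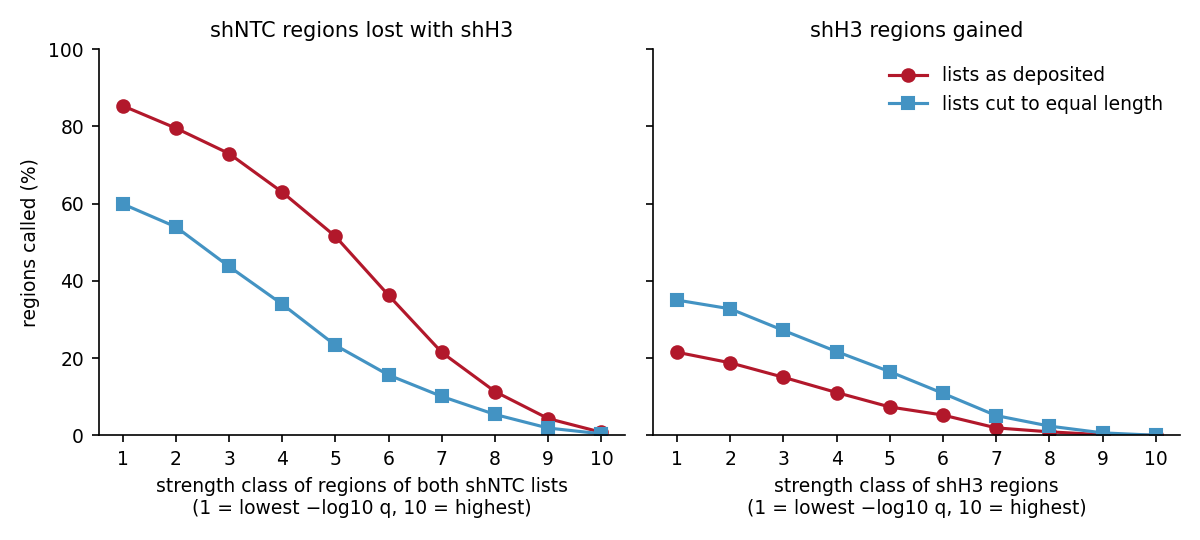
Share of shared shNTC regions lost (left) and of shH3 regions gained (right) in 10 equal classes of −log10 q (x axis, 1 weakest, 10 strongest); red circles are lists as deposited and blue squares lists of equal length. The lost share is 85.4% in class 1 and 0.781% in class 10 as deposited, and the gained share is 21.5% in class 1.

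By place, a smaller share of lost than of kept regions lay at gene starts. Within 2 kb of a start were 5.62% of lost regions (5.35 to 5.90%), against 20.7% of kept regions (20.3 to 21.2%), while 58.3% of lost and 38.5% of kept regions lay elsewhere in a gene. Of gained regions 6.42% (5.72 to 7.20%) were at a start and 49.4% between genes, against 20.5% and 32.6% of shH3 regions in an shNTC list. Ends of genes took 7.29% of lost, 7.27% of kept and 4.23% of gained regions. At equal length 7.04% of lost and 22.2% of kept regions were at a start, and 7.93% of gained regions. With −log10 q of at least 10 in every list the shares were 13.6% of lost, 27.4% of kept and 12.8% of gained regions, and with a distance of 5 kb as deposited 11.7% of lost regions. That filter drops the weaker regions of shH3 and shNTC alike, so its lost and gained sets are called anew. Exons and introns were not told apart. The median distance to the nearest other kept region was 9838 bp for lost and 7580 bp for kept regions.

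**Figure D4:**
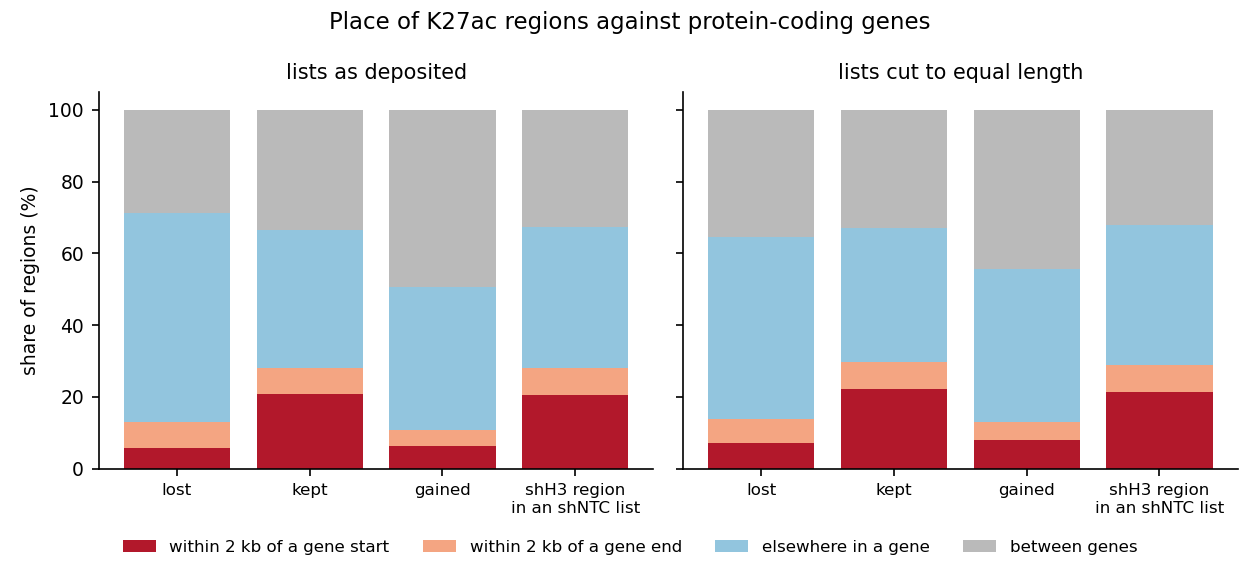
Shares of lost, kept, gained and other shH3 regions (bars, % on the y axis) by place against protein-coding genes, with lists as deposited (left) and of equal length (right). The red part, within 2 kb of a gene start, is 5.62% of lost against 20.7% of kept regions as deposited.

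Other libraries of the series, which the rule did not use, overlapped lost regions less than kept ones. Overlap was counted from 1 bp, and the sets differ in median width: 769 bp for lost, 1643 bp for kept, 323 bp for gained and 697 bp for other shH3 regions. The shares were not matched for width, so its part in them was not tested. Regions of the A375-GFP ATAC list overlapped 47.2% of lost and 93.1% of kept regions, and 65.1% of gained regions against 83.8% of the other shH3 regions. In the weakest strength class these shares were 26.3% of lost and 73.3% of kept regions, and in the strongest 78.4% and 99.5%, so they differed within classes too. At equal length 64.7% of lost, 95.1% of kept and 69.1% of gained regions overlapped, and with −log10 q of at least 10 in every list 89.1%, 99.1% and 94.1%. The K27ac list of A375-GFP, A375 cells labelled GFP, held 54.9% of lost, 83.0% of kept, 33.9% of gained and 78.6% of the other shH3 regions, and with −log10 q of at least 10 it held 79.0%, 93.1%, 71.2% and 91.7%. In the deposited classes 7 to 10 it held 60.3%, 66.5%, 66.1% and 60.8% of lost regions, against 84.5%, 89.1%, 92.8% and 95.1% of kept ones. HOXD13-HA regions of A375 overlapped 6.76% of lost (6.47 to 7.06%) and 14.2% of kept regions (13.9 to 14.6%), and with −log10 q of at least 10 13.7% and 16.6%. Regions overlapping HOXD13-HA were lost at 26.1%, against 44.7% of those not overlapping it, and at 17.7% against 25.9% at equal length. Within strength classes that gap was 4.02% of lost against 11.1% of kept regions in class 1, 13.8% against 13.7% in class 8 and 19.6% against 18.8% in class 10. Gained regions overlapped HOXD13-HA in 8.86%, and other shH3 regions in 10.8%. Kept regions also had the highest share in every list of the other melanoma lines: SKMEL-147 K27ac, for example, overlapped 18.7% of lost, 19.9% of gained and 46.3% of kept regions, and SKMEL-5 K27ac 14.1%, 12.6% and 47.9%.

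**Figure D5:**
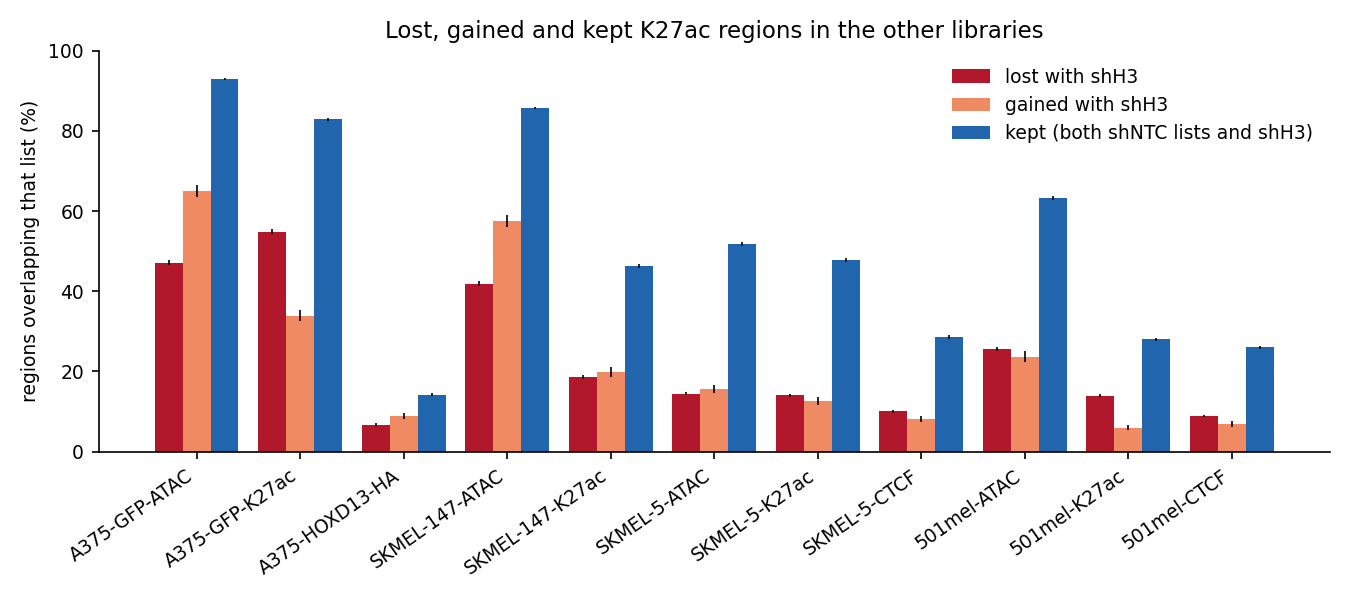
Share of lost (red), gained (orange) and kept (blue) K27ac regions that overlap by 1 bp each of 11 other region lists (x axis), with lists as deposited; error bars are 95% Wilson intervals. Kept regions have the highest share in all 11, with 93.1% in A375-GFP ATAC against 47.2% of lost and 65.1% of gained regions.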

How the data were processed

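K27ac region lists of 3 A375 libraries were compared: shH3 (1 library) and shNTC (replicates 1 and 2). The submitters' processing notes name hg38 as the build and MACS2, deepTools, Bowtie2, SAMtools and Trim Galore as tools; versions, settings and control libraries are not given in the sources used here. The deposited lists give each region's score, its fold enrichment (a ratio over the caller's background) and its −log10 p and −log10 q, all computed by the authors per library; here they serve only to rank, filter and describe the regions of 1 list. Regions on chromosomes 1 to 22 and X were kept; 684 (shH3), 1203 and 1050 (shNTC) regions on other sequences and 13, 23 and 20 on Y were left out. The lists hold no read counts, so depth is unknown.

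Overlaps, covered lengths and 95% Wilson intervals were computed in Python 3.11.15 (numpy 2.4.6, pandas 2.3.3, scipy 1.17.1) and tested on simulated lists, and the gained count was checked with bedtools 2.31.1. Gene names and spans came from RefSeq (GRCh38.p14; 19974 protein-coding genes, 15812 of them with a start in the promoter table). Of those promoter sequences the 250 bases before the start were used. Of 295 listed genes in 26 lists 294 matched; TRAC did not. Lists and members were chosen with earlier results of these data known, and TGANTCA, GGANTTTCC and the counts of gene starts were added after values were seen. Named genes were up to 4 a list by difference in covered length, HOXD13, the 10 strongest lost and gained regions and the 10 largest drops and rises among called genes; lost or gained starts and further list members were named after their values were seen. Lists were cut by −log10 q, with ties by fold. The lists covered VEGF, angiopoietin, hypoxia, semaphorin, plexin, adenosine, checkpoint, chemokine, antigen presentation, melanoma state, MAPK, cell cycle, cohesin, limb, HOX and housekeeping genes and markers of 5 other cell types.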

Additional observations from a re-analysis of the deposited data

How the results depend on the processing

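As deposited, 27870 regions were lost and 4253 gained. The lost count was 10806 at equal length, 600 at equal covered length, 9414 with −log10 q of at least 10 in every list and 13291 with 500-bp summit windows at equal length. The gained counts under these settings were 7891, 27180, 1788 and 17419, and 13281 with summit windows as deposited. Leaving out 1 shNTC replicate, which drops the need for a region in both lists, gave 40611 (without replicate 1) to 45851 (without replicate 2) lost and 5270 to 6032 gained regions, and at equal length 16580 to 16595 lost and 9766 to 10017 gained. Genes with less cover numbered 571 at equal covered length, 5215 as deposited, 3302 at equal length, 3408 with −log10 q of at least 10, and 837 to 939 without 1 replicate (939 without replicate 2). Genes with more cover numbered 752, and 19, 40 and 33 under these first 3 alternatives, 1447 with 50-kb flanks and 977 to 984 without 1 replicate. Starts, with alternatives chosen after seeing the data, numbered 933 lost and 110 gained, 547 and 302 at equal length, 180 gained with −log10 q of at least 10, and 1040 to 1201 lost and 149 to 219 gained without 1 replicate (219 without replicate 1). The cause was not tested beyond the construction of each cut.

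Cover in shH3 minus the shNTC mean turned negative for 7 of the 10 genes with the largest rises. As deposited it was -3306 bp in MITF, -1974 bp in SHROOM3, -12160 bp in JARID2, -2037 bp in DPH6, -13099 bp in COL5A2, -2148 bp in NPAS3 and -9901 bp in NHS. At equal length it was -281.5 bp in MITF, -194.5 bp in SHROOM3, -7496 bp in JARID2, -810 bp in DPH6, -9904 bp in COL5A2 and -5508 bp in NHS. With −log10 q of at least 10 it was -703 bp in SHROOM3, -6584 bp in JARID2, -3257 bp in DPH6, -6322 bp in COL5A2, -7854 bp in NPAS3 and -7055 bp in NHS. No paired analysis was possible because shH3 has 1 library and no test was run.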

Other observations

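Counted as runs with no kept region between them, the lost regions formed 14193 runs, 84 of them with at least 10 regions, and at equal length 7742 runs, none with 10. The runs with the most regions were at NBPF14 and NOTCH2NLB (28 regions over 84573 bp) and at NBPF10 and NOTCH2NLA (21 regions over 106465 bp). These are genes with near-identical copies on chromosome 1, where the placing of reads is uncertain. Next came NEURL1 and SH3PXD2A with 20 regions (26882 bp lost), PRRC2B with 17 and PRKDC, the catalytic subunit of the DNA-dependent protein kinase, with 16 regions (20157 bp lost), each with 0 bp of K27ac in shH3 between its ends. At equal length the run with the most regions was at ENOX1 and CCDC122, with 9 regions over 198183 bp, 18715 bp of them lost and 0 bp covered in shH3.

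The lost share ran from 37.0% on chromosome 21 to 45.6% on chromosome 20, and at equal length from 20.1% on chromosome 22 to 27.9% on chromosome 13. The gained share ran from 4.62% on chromosome 19 to 12.2% on chromosome 21, and at equal length from 10.0% on chromosome 19 to 22.1% on X.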
